A study of Rattus norvegicus with 6 samples.

Results

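The ErbB receptors and their ligands were examined in a basal and a non-basal cell fraction of the epididymis, the convoluted tube behind the testis where sperm gain motility and fertilising ability. The set held 10 genes of the 18166 that could be named on the arrays: the 4 receptor genes Egfr, Erbb2, Erbb3 and Erbb4 and the 6 ligand genes Nrg1, Epgn, Tgfa, Hbegf, Areg and Ereg. They were chosen by name, with the difference between the fractions already known from the same arrays, so that difference is given for them as a description and not as a test. Each member had 1 probe set on the array. The basal fraction (3 arrays) and the non-basal fraction (3 arrays) came from epididymides of Sprague-Dawley rats aged 48 days, divided by a magnetic method and hybridised as total RNA to Affymetrix RaGene 2.0 ST arrays. No treatment or genetic change was named for either fraction. The labels mention 3 rats without saying which array held which animal, and the surface molecule used for the separation is not named in them.

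ErbB receptors are receptor tyrosine kinases that pair with one another when a ligand of the epidermal growth factor family binds. The ligands are made as membrane proteins and are cut free by metalloproteases. Egfr binds the products of Tgfa, Areg, Epgn, Hbegf and Ereg, whereas Erbb3 and Erbb4 bind neuregulins, and Erbb4 also binds the products of Hbegf and Ereg. Erbb2 has no known ligand of its own and acts as a partner of the others, and Erbb3 has little kinase activity and signals through its partners. In stratified and pseudostratified epithelia Egfr is known as a receptor of the basal layer.

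Promoter letters were read for the members that stood higher in the basal fraction, because Epgn and Areg lie close together and yet differed in how far the fractions stood apart. In the GRCr8 assembly the protein-coding genes Btc, Areg, Ereg and Epgn follow one another on chromosome 14. RefSeq promoter windows of GRCr8 were found for 7 of the 10 members, not for Erbb3, Nrg1 and Ereg. The 250 bases before the annotated start are printed 5′ to 3′ on the strand of the gene, with the matches to 4 motifs in capitals.
Egfr, chr14:95378376-95378625, plus strand: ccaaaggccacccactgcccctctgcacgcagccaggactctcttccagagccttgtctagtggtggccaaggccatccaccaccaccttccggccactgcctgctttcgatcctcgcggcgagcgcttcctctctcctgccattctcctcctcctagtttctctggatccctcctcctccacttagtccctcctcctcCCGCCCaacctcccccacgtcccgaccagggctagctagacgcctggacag
Tgfa, chr4:120175469-120175718, plus strand: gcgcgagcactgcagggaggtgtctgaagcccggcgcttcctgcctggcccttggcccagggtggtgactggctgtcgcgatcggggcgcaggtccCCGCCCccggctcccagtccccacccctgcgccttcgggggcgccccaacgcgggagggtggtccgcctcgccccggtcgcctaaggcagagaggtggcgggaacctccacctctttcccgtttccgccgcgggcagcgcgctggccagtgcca
Hbegf, chr18:28390221-28390470, minus strand: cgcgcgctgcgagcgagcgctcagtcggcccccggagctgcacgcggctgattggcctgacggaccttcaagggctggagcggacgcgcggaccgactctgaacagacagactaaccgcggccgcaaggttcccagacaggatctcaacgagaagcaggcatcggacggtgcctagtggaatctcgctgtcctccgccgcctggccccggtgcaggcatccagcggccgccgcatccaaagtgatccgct
Epgn, chr14:17369001-17369250, minus strand: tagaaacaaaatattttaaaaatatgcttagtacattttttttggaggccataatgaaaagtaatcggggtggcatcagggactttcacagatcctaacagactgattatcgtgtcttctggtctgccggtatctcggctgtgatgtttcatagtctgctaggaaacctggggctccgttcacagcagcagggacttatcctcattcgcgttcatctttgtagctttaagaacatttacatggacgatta
Areg, chr14:17265642-17265891, minus strand: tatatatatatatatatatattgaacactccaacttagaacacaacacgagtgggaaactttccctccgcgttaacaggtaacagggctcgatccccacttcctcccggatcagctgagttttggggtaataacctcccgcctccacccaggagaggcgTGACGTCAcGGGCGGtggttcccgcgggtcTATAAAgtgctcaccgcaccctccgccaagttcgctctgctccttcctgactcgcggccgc

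The motifs were TATAAA (the TATA box), GGGCGG (the GC box bound by Sp family factors), TGANTCA (the AP-1 motif) and TGACGTCA (the cyclic AMP response element), searched on both strands. Areg held a cyclic AMP response element starting 91 bases before its start, a GC box at 82 and a TATA box at 61, with no overlap among them. Over 33465 RefSeq windows of the same length, 1.59% held the cyclic AMP response element, 30.5% a GC box, 12.9% a TATA box and 6.34% the AP-1 motif. Egfr held a single GC box at 51 bases before its start, and Tgfa a single one at 154. The windows of Erbb2 and Erbb4, not printed, held 1 GC box each. In the Epgn and Hbegf windows none of the 4 motifs was matched. The Epgn window was AT-rich at 41.2% G and C, against 54.4% in Areg, 63.6% in Egfr, 67.6% in Hbegf, 74.4% in Tgfa and a median of 51.2% over all windows. These are matches of letters in a short window and describe neither binding nor use of the site.

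Array medians over all probe sets were 6.63 to 6.70 on the log2 scale, and over the named genes alone they were 7.33 to 7.40 on the basal arrays and 7.44 to 7.48 on the non-basal arrays. Of 18166 genes, 1401 were higher and 1297 lower in the basal fraction (limma, Benjamini-Hochberg adjusted p under 0.05, called here past the threshold), together 14.9%. That total fell to 1191 without basal replicate 1, 1087 without basal replicate 2, 1069 without non-basal replicate 3 and, for its replicate 2, 1261. Markers of basal epithelium were higher in all 17 measured genes of 20 listed, and their mean log2 level was 10.41 to 10.78 on the basal arrays and 7.86 to 8.42 on the non-basal arrays. Fibroblast and stromal markers were lower in all 14, at 7.12 to 8.75 on the basal arrays and 10.80 to 11.85 on the non-basal arrays. Of smooth muscle and pericyte markers 9 of 11 were lower (8.06 to 8.73 basal, 10.04 to 10.26 non-basal), of endothelial markers 10 of 10 (6.89 to 7.33 basal, 8.56 to 8.73 non-basal), of lymphocyte and natural killer cell markers 8 of 13 (5.79 to 6.19 basal, 7.14 to 7.93 non-basal) and of macrophage and dendritic cell markers 3 of 15 (7.74 to 8.18 basal, 7.91 to 9.07 non-basal). Of 17 principal cell and luminal markers 1 was higher and 2 were lower (9.89 to 10.82 basal, 10.64 to 10.76 non-basal), of 12 narrow and clear cell markers 0 passed, with 0 at an unadjusted limma p under 0.05 (7.83 to 8.09 basal, 7.94 to 8.37 non-basal), and of 12 Schwann and neural markers 1 was higher (6.94 to 7.08 basal, 7.09 to 7.32 non-basal). No marker was listed at 0, since these array values have no true zero. The part of these cell types in the values below was not tested, and in such bulk fractions fewer cells of a type and less RNA per cell cannot be told apart. The p-values measure only the spread between these arrays, which may be technical.

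Egfr and 5 of the 6 ligand genes stood higher in the basal fraction, while Erbb2, Erbb3, Erbb4 and Ereg did not pass the threshold in either direction. The 6 that were higher thus made up 6 of 10 members, beside 7.71% of all genes tested, and 0 members were lower, beside 7.14%. In the same 6 genes all 3 basal arrays lay above all 3 non-basal arrays, which was so for 17.6% of all genes, and 32.9% of all genes had no overlap in one direction or the other. The median log2 difference over the 10 members was 1.39, beside 0.00343 over all named genes. Because the members were picked with this contrast known, nothing is read from these shares.

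**Figure D1:**
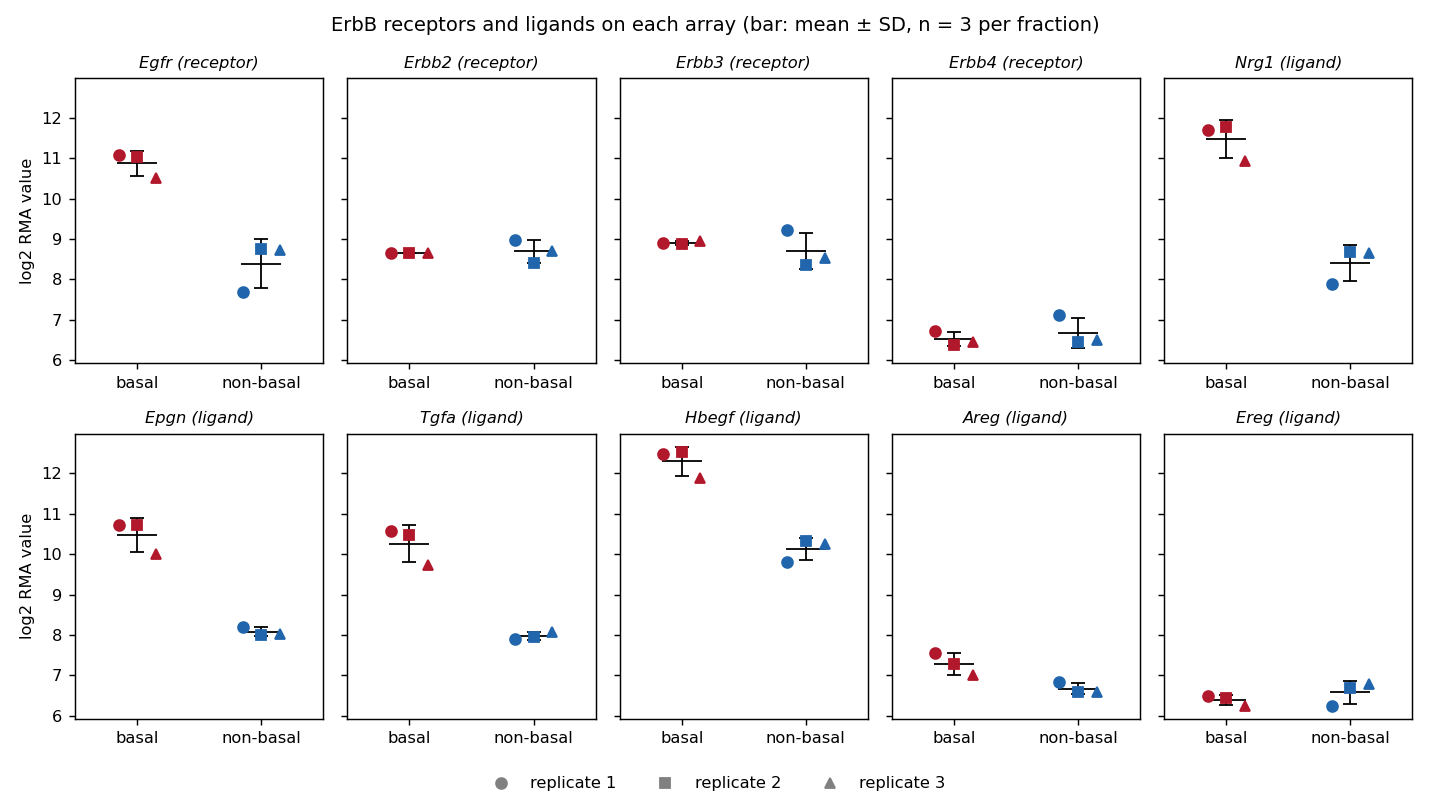
Log2 RMA values of the 10 members, 1 panel per gene, with the 3 basal arrays left of the 3 non-basal arrays, a marker shape for each replicate number, and bars for the mean ± SD. Egfr, Nrg1, Epgn, Tgfa and Hbegf show the fractions parted by more than 2 log2 units on average, Areg by 0.60, and the basal points of Erbb2 lie at 1 value.

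Among the receptors, Egfr was the only gene whose fractions did not overlap. Egfr, the receptor of epidermal growth factor itself, had log2 values of 11.09, 11.03 and 10.52 on basal arrays 1 to 3, against 7.69, 8.76 and 8.72 on non-basal arrays 1 to 3. The lowest basal array lay 1.76 above the highest non-basal array, and the widest spread was on the non-basal side, where replicate 1 was low. The log2 difference was 2.49 ± 0.32 (SE of limma), a 5.60-fold higher level in the basal fraction, and 31 of the 18166 genes had a larger positive difference.

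Erbb2, the receptor without a known ligand, had 8.66 on every basal array, against 8.99, 8.41 and 8.69 on the non-basal arrays. The non-basal values lay on both sides of the basal one, and the log2 difference was -0.036 ± 0.15. The basal SD was exactly 0, because the deposited value was the same on the 3 arrays. Such a triple tie occurred in 379 of the named genes for the basal fraction (2.09%) and in 386 for the non-basal fraction (2.12%), and among the members in Erbb2 alone. The standard error of Erbb2 therefore rests on the non-basal arrays and on the spread that limma borrows from other genes.

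Erbb3, the receptor with little kinase activity, had 8.89, 8.87 and 8.95 on the basal arrays, against 9.22, 8.37 and 8.52 on the non-basal arrays. Non-basal replicate 1 was above all basal arrays and the other non-basal arrays were below them, so the fractions overlapped and the log2 difference was 0.20 ± 0.22. Without non-basal replicate 1 the log2 difference of Erbb3 was 0.46 and it passed the threshold, whereas leaving out non-basal replicate 2 gave 0.032 and leaving out replicate 3 of that fraction gave 0.11. Erbb4, the neuregulin receptor with full kinase activity, had 6.71, 6.38 and 6.45 on the basal arrays, against 7.11, 6.44 and 6.50 on the non-basal arrays. The fractions overlapped and the log2 difference was -0.17 ± 0.20. Erbb4 was dim, with means of 6.52 (basal) and 6.68 (non-basal), below the array medians over the named genes of 7.33 to 7.48. The sign for Erbb2 and Erbb4 changed without non-basal replicate 1, to 0.11 and 0.044. For Erbb2 it also changed when each array was centred on its median over the named genes, to 0.063, a setting in which the median difference of all genes was itself 0.10.

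All 3 of these receptor genes had their highest value on non-basal replicate 1, the array on which Egfr was lowest. On that array the basal epithelial markers deviated by -1.58 from their mean over the 6 arrays, against -1.02 and -1.03 on the other non-basal arrays. Narrow and clear cell markers deviated there by 0.35, against -0.08 and -0.02, and principal cell markers by 0.26, against 0.15 and 0.14. Fibroblast markers deviated by 1.17 on that array, against 2.22 and 2.05 on the others. The part of these cell types in the receptor values was not tested.

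Nrg1 showed the widest gap of the ligands. Nrg1, which encodes neuregulin 1 and gives rise to many isoforms that 1 probe set cannot part, had 11.71, 11.78 and 10.94 on the basal arrays, against 7.89, 8.68 and 8.65 on the non-basal arrays. The log2 difference was 3.07 ± 0.31, an 8.40-fold higher level, and 7 of all named genes had a larger positive difference. Markers of Schwann cells, which depend on neuregulin, and of neural cells had a median log2 difference of -0.18 over 12 genes. The 1 that passed the threshold, Mbp, was higher in the basal fraction at 1.12. S100b did not pass (limma adjusted p = 0.0825) but was lower at -1.23, with no overlap between the fractions. Mbp and S100b are named after their values were seen.

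Of the 5 member ligands that bind Egfr, Epgn, Tgfa and Hbegf had gaps of similar size, and Areg and Ereg did not. Epgn, which encodes epigen, had 10.733, 10.724 and 9.9997 on the basal arrays, against 8.21, 7.99 and 8.03 on the non-basal arrays. The non-basal values of Epgn were within 0.21 of each other, and the log2 difference was 2.41 ± 0.21, a 5.31-fold higher level. Tgfa, which encodes transforming growth factor alpha, had 10.58, 10.47 and 9.73 on the basal arrays, against 7.89, 7.94 and 8.07 on the non-basal arrays. The nearest arrays of the 2 fractions were 1.66 log2 units apart for Tgfa, and the log2 difference was 2.29 ± 0.23, a 4.89-fold higher level. Hbegf, which encodes the heparin-binding ligand of Egfr and Erbb4, had 12.48, 12.53 and 11.89 on the basal arrays, against 9.81, 10.33 and 10.26 on the non-basal arrays. Its log2 difference was 2.17 ± 0.22, a 4.50-fold higher level, with no overlap between the fractions.

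Areg and Ereg are the neighbours of Epgn on chromosome 14. Areg, which encodes amphiregulin and carries the cyclic AMP response element shown above, had 7.545, 7.271 and 7.002 on the basal arrays, against 6.824, 6.597 and 6.590 on the non-basal arrays. The fractions did not overlap but the nearest arrays were 0.18 apart, and the log2 difference was 0.60 ± 0.15, a 1.52-fold higher level. Areg lay just inside the threshold and lost its call without basal replicate 1 or 2, without any 1 of the non-basal arrays, and when all probe sets were tested, with log2 differences of 0.47 to 0.68 in those fits. Ereg, which encodes epiregulin, had 6.48, 6.45 and 6.25 on the basal arrays, against 6.25, 6.69 and 6.79 on the non-basal arrays. The fractions of Ereg overlapped, with its lowest values on basal replicate 3 and non-basal replicate 1, and its log2 difference was -0.18 ± 0.16. Ereg was dim like Erbb4, with means of 6.39 (basal) and 6.58 (non-basal). With 1 array left out, the log2 difference of Ereg ranged from -0.35 without non-basal replicate 1 to -0.078 without non-basal replicate 3.

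**Figure D2:**
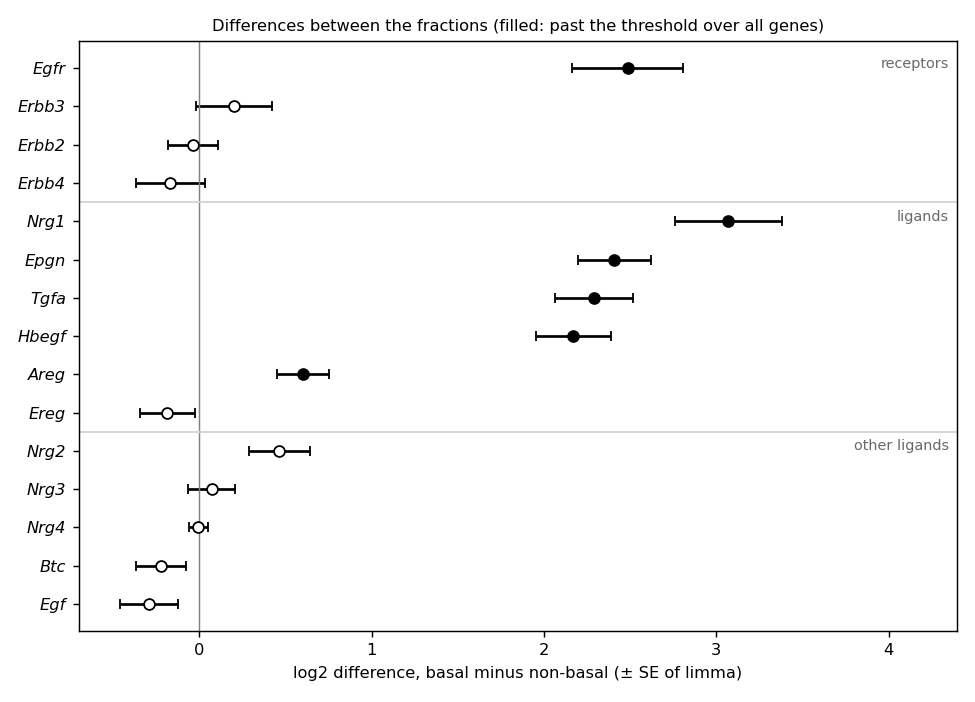
Log2 difference, basal minus non-basal, on the horizontal axis for the 4 receptors, the 6 member ligands and the 5 other ligands of the family, with bars for the standard error of limma and filled points past the threshold over all genes. Egfr, Nrg1, Epgn, Tgfa and Hbegf lie between 2.17 and 3.07, Areg lies at 0.60, and the remaining genes lie between -0.29 and 0.46.

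The 5 ligand genes of the family that are not members were measured too, and 0 of them passed the threshold, with 1 at an unadjusted p under 0.05, Nrg2. Nrg2, which encodes neuregulin 2, had 8.41, 8.25 and 8.19 on the basal arrays, against 7.44, 8.09 and 7.93 on the non-basal arrays. Its fractions did not overlap, with a log2 difference of 0.46 ± 0.18 (limma adjusted p = 0.142). Egf, the epidermal growth factor gene, had a log2 difference of -0.29 ± 0.17 (limma adjusted p = 0.301), and Btc, which encodes betacellulin, one of -0.22 ± 0.15 (adjusted p = 0.361). Nrg3 and Nrg4, neuregulins that bind Erbb4, had log2 differences of 0.071 ± 0.14 (adjusted p = 0.76) and -0.0061 ± 0.055 (adjusted p = 0.954). The deposited value of Nrg4 was 5.88 on all 3 basal arrays, against 5.89, 5.88 and 5.88 on the non-basal arrays, below every array median.

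Each ligand was then set beside the receptors it binds. Among the 6 member ligands there were 9 ligand and receptor pairs. In 4 pairs both genes stood higher in the basal fraction, namely Tgfa, Epgn, Hbegf and Areg, each with Egfr. In 3 pairs the ligand was higher while the receptor did not pass, namely Nrg1 with Erbb3, Nrg1 with Erbb4 and Hbegf with Erbb4. Ereg with Egfr was the 1 pair in which only the receptor was higher, and Ereg with Erbb4 the 1 pair in which neither passed. With the 5 other ligands there were 16 pairs, and the counts were 4, 3, 3 and 6 in the same order. Nrg1 thus had a log2 difference of 3.07, beside 0.20 for Erbb3 and -0.17 for Erbb4, whereas Epgn, Tgfa and Hbegf at 2.17 to 2.41 stood beside 2.49 for Egfr. Pairs share genes, so these counts are not of independent items. Erbb4 and Ereg were dim on every array. In their pairs, not passing does not tell an unchanged level from a signal too weak to compare.

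**Figure D3:**
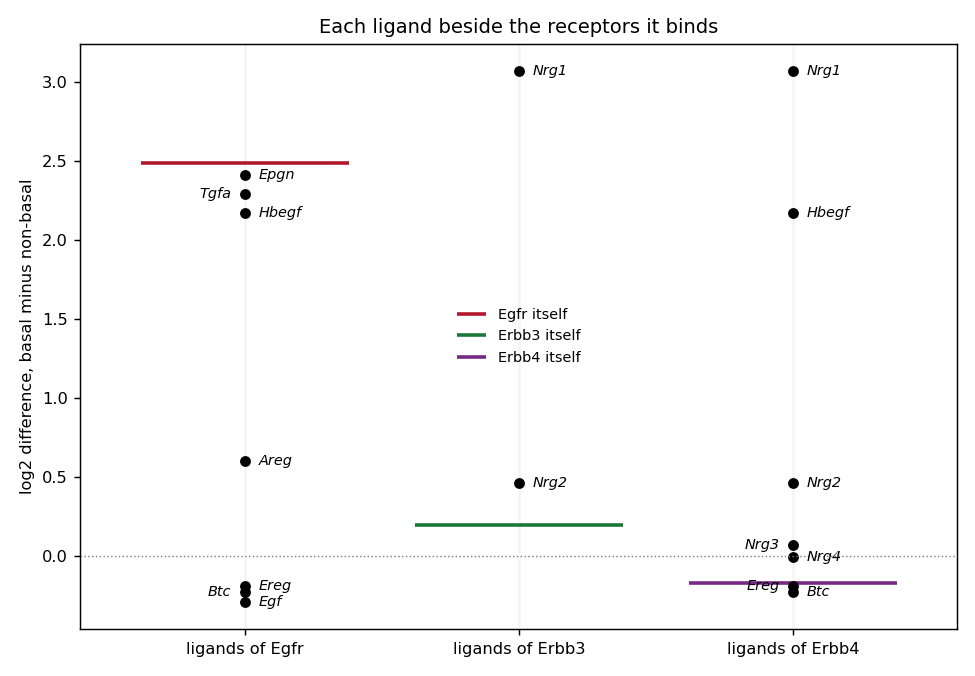
Log2 difference, basal minus non-basal, of each ligand gene (points) above the receptor it binds, with the receptor's own difference as a coloured line. Epgn, Tgfa and Hbegf lie at 2.17 to 2.41, just under the Egfr line at 2.49, while Nrg1 lies far above the lines of Erbb3 and Erbb4.

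Within the basal fraction the 6 higher members had their lowest value on the same array. Basal replicate 3 was the lowest basal array for all 6, by 0.81 for Nrg1, 0.79 for Tgfa, 0.73 for Epgn, 0.61 for Hbegf, 0.53 for Egfr and 0.41 for Areg below the mean of basal replicates 1 and 2. A gap of 0.4 or more in this direction was seen in 7.15% of all named genes and in 26.9% of the genes called higher. That cut lies just under the smallest gap of the 6, 0.41 for Areg, so nothing is read from all 6 passing it. The gaps rest on basal replicate 3 alone. The median gap over the basal epithelial markers was -0.33 and that over all named genes was -0.013. On basal replicate 3 fibroblast markers deviated by -0.88 from their mean over the 6 arrays, against -2.51 and -2.04 on basal replicates 1 and 2, and principal cell markers by 0.32, against -0.62 and -0.26. The part of other cells in the lower values of this array was not tested. Without basal replicate 3 the log2 difference was 2.66 for Egfr, 3.34 for Nrg1, 2.65 for Epgn, 2.55 for Tgfa and 2.37 for Hbegf.

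On the non-basal side the same genes did not all differ the same way on replicate 1, and these differences rest on that array alone. Egfr, Nrg1 and Hbegf were lower on non-basal replicate 1 than on the mean of replicates 2 and 3, by 1.05, 0.78 and 0.48. Tgfa differed by -0.11 there, while Epgn and Areg were higher on that array by 0.19 and 0.23. The non-basal array with the lowest level of basal markers was thus also the lowest non-basal array for Egfr, Nrg1, Hbegf and, by a smaller margin, Tgfa, and the highest for Epgn and Areg.

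**Figure D4:**
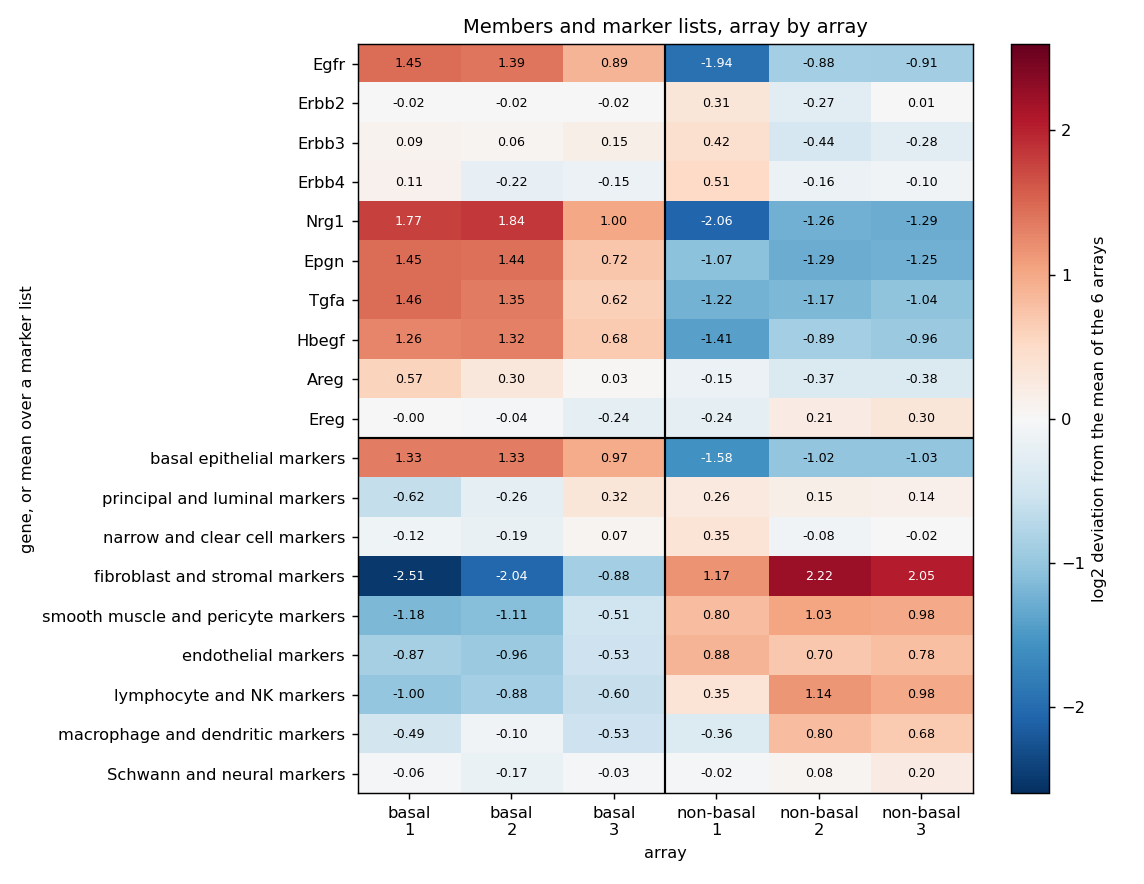
Log2 deviation of each member, and of the mean of each marker list, from its own mean over the 6 arrays, with basal arrays left of non-basal arrays. Basal epithelial markers deviate by 1.33, 1.33 and 0.97 on the basal arrays and by -1.58, -1.02 and -1.03 on the non-basal arrays, and fibroblast markers run the other way.

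The genes with the most similar profile were found by the Euclidean distance over the 6 arrays, each gene centred on its own mean. For Egfr they were Serpinb1a (distance 0.28), Egfl6 (0.31) and Krt17, a keratin of basal layers (0.35). For Nrg1 they were the sodium pump regulator gene Fxyd3 (0.28), Ankrd22 (0.30) and Serpinb5, which encodes maspin (0.30). For Epgn they were the keratin gene Krt80 (0.17), Prrg4 (0.24) and the ephrin receptor gene Epha2 (0.27). These 9 genes were all past the threshold and higher in the basal fraction, with log2 differences of 2.25 to 3.23. They were chosen for profiles like those of Egfr, Nrg1 and Epgn, so this is no separate result. Erbb3 was nearest to the desmosomal plaque gene Pkp2 (0.078), the epithelial membrane protease gene Prss8 (0.10) and Gca (0.10), none of which passed. Erbb4 was nearest to Vom2r58 (0.14), Hepacam2 (0.17) and Rhbdd2 (0.18). Erbb2 was nearest to Zfp472 (0.042), Fam89a (0.049) and Homez (0.061), and Zfp472 and Homez likewise had the same deposited value on all 3 basal arrays. Centring hides the level of a gene: Vom2r58, at 3.28 to 3.94, and Zfp472, at 4.93 to 5.51, lay below every array median. With 6 arrays in 2 fractions many genes share such a profile, and likeness here is a description only.

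Genes that act before and after the receptors were counted in 5 lists of 89 names, of which 80 matched a measured gene and 9 did not. Of these 9, Nrdp1 is another name of Rnf41, which is among the 80, and the others were not analysed here. Of the 80, 15 were higher, 8 lower and 57 did not pass, so 28.7% were past the threshold beside 14.9% of all genes. Their median log2 difference was 0.072, beside 0.00343 over all genes. The shares compare genes at unlike levels, since the mean log2 level per array was 8.99 to 9.10 for the 80 and 7.40 to 7.43 for all named genes. With only genes whose mean reached 7 in at least 1 fraction, 2961 of 10876 genes were past the threshold. Of the pathway genes kept by that filter, 26 were. Nothing is read from the 2 shares. The lists given a share below had mean log2 levels per array of 8.69 to 9.66. The 14.9% set beside them includes many dimmer genes, so nothing is read from the list shares either. Among the 80, the number past the threshold was 10 without basal replicate 1, 9 without basal replicate 2, 9 without non-basal replicate 3 and, for its replicate 2, 12. Of the genes picked by the naming rule, Rhbdf1, Adam17, Gab2, Src, Dusp5, Dusp6 and Spred2 stayed past the threshold whichever array was left out, whereas Adam19, Rhbdf2, Gab1, Cblb, Memo1, Nras, Stat3, Pik3ca and Ptpn1 each lost their call in 1 or more of these fits.

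Among 12 genes of ligand shedding and trafficking 5 were higher and 4 lower, or 75%, beside 14.9% of all genes past the threshold. Adam17 encodes a protease that cuts free the precursors of several ligands of the family. Its values were 9.83, 9.85 and 9.67 on the basal arrays, against 9.29, 9.25 and 9.20 on the non-basal arrays. All basal values of Adam17 were above all non-basal ones, with a log2 difference of 0.54 ± 0.074 (limma adjusted p = 0.00747). Rhbdf1 and Rhbdf2 encode the inactive rhomboids that bring this protease to the cell surface. Rhbdf1 had 11.16, 11.05 and 10.68 on the basal arrays, against 9.84, 9.61 and 9.64 on the non-basal arrays, a log2 difference of 1.27 ± 0.14 (limma adjusted p = 0.00428). Rhbdf2 had a log2 difference of 0.76 ± 0.11 (adjusted p = 0.00953). Adam19, a protease that can cut neuregulin, was lower at -1.66 ± 0.24 (limma adjusted p = 0.00876). The others past the threshold were 5 genes picked out after their values were seen. Frmd8 and Tmem106a were higher by 0.26 and 0.23, and Timp3, Adam12 and Bace1 were lower at -0.79, -1.52 and -0.61. Frmd8, Tmem106a and Adam12 lay just inside the threshold (limma adjusted p = 0.0478, 0.0473 and 0.0447). The calls of these 5 genes were not followed with arrays left out. Tmem106a is not an established factor of ligand release.

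Among 22 adaptors and scaffolds 3 were higher and 3 lower, or 27.3%, beside 14.9% of all genes past the threshold, and 16 did not pass. The docking protein genes Gab1 and Gab2 went opposite ways. Gab1 was higher by 0.77 ± 0.11 (limma adjusted p = 0.00844), with 10.89, 10.79 and 10.53 on the basal arrays, against 10.07, 9.93 and 9.91 on the non-basal arrays. Gab2 was lower at -0.85 ± 0.11 (limma adjusted p = 0.00596), with 8.40, 8.62 and 8.73 on the basal arrays, against 9.31, 9.53 and 9.45 on the non-basal arrays. Cblb, a ubiquitin ligase, was lower at -0.60 ± 0.10 (adjusted p = 0.0143), and Memo1, a mediator of Erbb2-driven cell motility, was higher by 0.42 ± 0.077 (adjusted p = 0.0177). Also past the threshold, and named after their values were seen, were the adaptor genes Nck2, higher by 0.41, and Shc2, lower at -0.68. The adaptor genes Grb2, Shc1 and Sos1 had log2 differences of 0.088, 0.061 and -0.018 and did not pass.

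Among 22 downstream kinases and effectors 3 were higher and 1 lower, or 18.2%, beside 14.9% of all genes past the threshold. The other 18 did not pass. Src, a non-receptor tyrosine kinase, had 10.27, 10.09 and 9.99 on the basal arrays, against 8.92, 8.83 and 8.91 on the non-basal arrays. The fractions of Src were more than 1 log2 unit apart, with a log2 difference of 1.23 ± 0.088 (limma adjusted p = 0.00206). Nras, a small GTPase, was higher by 0.70 ± 0.12 (adjusted p = 0.0139), and Pik3ca, the catalytic subunit of a lipid kinase, by 0.41 ± 0.10 (adjusted p = 0.0436). Stat3, a transcription factor, was lower at -0.28 ± 0.064 (limma adjusted p = 0.0363), a call that was lost whichever array was left out, with the replicate number as a block, with each array centred on its median and with all probe sets tested.

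Among 19 feedback inhibitors 4 were higher and 0 lower, or 21.1%, beside 14.9% of all genes past the threshold, and 15 did not pass. In these 15, 2 had an unadjusted p under 0.05. Dusp6, the phosphatase that acts on the kinase ERK and is itself induced by it, had 11.63, 11.73 and 10.75 on the basal arrays, against 8.97, 9.45 and 9.35 on the non-basal arrays. Its log2 difference was 2.12 ± 0.29 (limma adjusted p = 0.00707), with the lowest basal value on replicate 3. The same held for the 6 higher members and for every other higher gene picked by the naming rule except Spred2. Dusp5, a nuclear phosphatase of ERK, was higher by 1.13 ± 0.11 (limma adjusted p = 0.00298), and Spred2, an inhibitor of the Ras pathway, by 0.63 ± 0.072 (adjusted p = 0.00438). Ptpn1, a phosphatase that acts on Egfr, was higher by 0.82 ± 0.13 (limma adjusted p = 0.0126). Errfi1 and Lrig1, direct inhibitors of ErbB receptors, had log2 differences of 0.19 (adjusted p = 0.273) and -0.16 (adjusted p = 0.35), and Spry2 and Spry4 had 0.08 and 0.18, none of which passed.

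**Figure D5:**
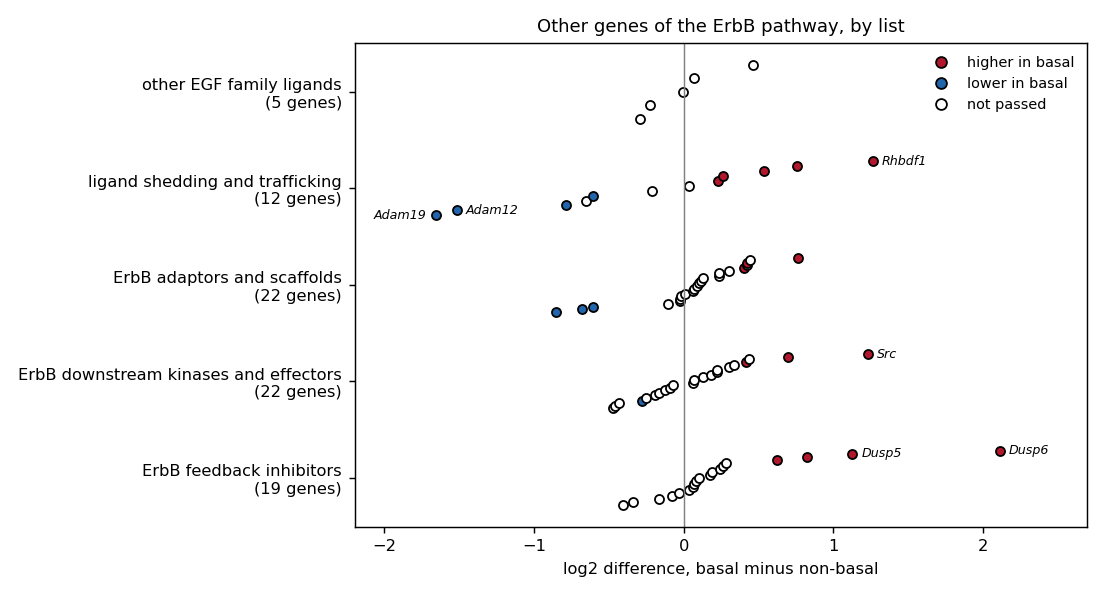
Log2 difference, basal minus non-basal, of the 80 pathway genes that are not members, in 5 rows by list, with red points higher, blue points lower and open points not past the threshold. Dusp6 at 2.12, Rhbdf1 at 1.27, Src at 1.23 and Dusp5 at 1.13 lie farthest to the right, and Adam19 at -1.66 and Adam12 at -1.52 farthest to the left.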

How the data were processed

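Total RNA of the 2 fractions was measured on 6 Affymetrix arrays. The deposited values are log2 expression values made by the authors with RMA, a method of background correction, quantile normalization and probe set summary; per the submitters' processing notes the software was Affymetrix Expression Console. Versions and the genome build of the probe sets are not given in the sources used here. RMA removes shifts common to most genes and compresses differences of dim probe sets. Of 36685 probe sets, 18511 carried 1 symbol in the platform annotation, and the one with the highest mean was kept for each of 18166 genes. Groups came from the sample titles, and no 2 arrays held the same data, with correlations over probe sets of 0.982 to 0.991 within a fraction. The linear model of limma 3.58.1 (R 4.3.3; lmFit, then eBayes) gave basal minus non-basal log2 differences, with no replicate block, 4 residual degrees of freedom and two-sided p-values, with Benjamini-Hochberg adjustment over all 18166 genes and a threshold of 0.05. Dim probe sets were kept, and precision is limited by the number of arrays. The procedure was tested on simulated data with independent noise for each gene, which hold no effects that genes share on an array. The genes, lists and tests were chosen with earlier results of these data known. Named pathway genes were every other ligand and the 4 genes with the smallest p in each further list, with added ones marked or given as examples of genes that did not pass. Alternatives were a replicate block, quantile normalization, median centring, filters at 5 and 7, array weights, a robust spread with an intensity trend, averaging a gene's probe sets, testing all probe sets, and arrays left out. Promoter letters were taken from RefSeq windows of GRCr8, whose coordinates are those of that build and not of the array.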

Additional observations from a re-analysis of the deposited data

How the results depend on the processing

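Egfr, Nrg1, Epgn, Tgfa and Hbegf stayed past the threshold in all 16 alternatives, with log2 differences of 2.14 to 2.67, 2.81 to 3.34, 2.28 to 2.72, 2.13 to 2.55 and 2.01 to 2.37. The number of members past it was 6, and 5 to 6 with 1 array left out, 5 with all probe sets tested and 7 without both basal replicate 3 and non-basal replicate 1. With 1 array left out, the genes called numbered 1069 to 3543 (2698 with all arrays), and the pathway genes 9 to 24 in all (23), 7 to 16 higher (15) and 1 to 8 lower (8). Array weights gave 5191 genes and 13 lower pathway genes, and the fit without both basal replicate 3 and non-basal replicate 1 gave 4623 genes and 31 pathway genes, 17 higher and 14 lower. Signs changed for Erbb2 with median centring (0.063), array weights (0.048), without non-basal replicate 1 (0.11) and without that array and basal replicate 3 (0.11), and for Erbb4 in the last 2 settings (0.044 and 0.075). They also changed for Nrg3 without non-basal replicate 1 (-0.017) and for Nrg4 with quantile normalization (0.048) and median centring (0.093). With 1 array left out Erbb2 ranged from -0.18 to 0.11, Erbb4 from -0.29 to 0.044 and Nrg3 from -0.017 to 0.22. The cause was not tested. Centring each array on its median over the named genes moved the median of all genes to 0.10, and 64.8% of the calls were then higher, against 51.9% as deposited. The labels do not tie arrays to animals, so the numbers were not taken to pair the samples. Same-numbered arrays correlated at 0.0278 to 0.0383 in their deviations from the fraction means. With 3 arrays per fraction these correlations cannot settle whether the arrays were paired. With the replicate number as a block 2009 genes, 6 members, 19 pathway genes, 13 higher and 6 lower, were past the threshold.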
